A study of Homo sapiens with 8 samples.

Results

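The nuclear genes for subunits of the oxidative phosphorylation complexes were followed through the 8 libraries. They were taken by symbol, as rows that begin with NDUFA, NDUFB, NDUFC, NDUFS or NDUFV and a digit, with UQCR, with COX4 to COX8 or with ATP5A to ATP5L, together with SDHA to SDHD. Pseudogene symbols were left out, and at least 1 library had to reach 10 units, the scale of the files. Of 84 symbols that matched, 77 met this minimum, among the 14429 genes that met it of 20531 listed. By complex, 36 belonged to complex I, 4 to complex II, 9 to complex III, 11 to complex IV and 15 to complex V. The other 2, COX4NB (now EMC8, a membrane protein insertase subunit) and COX7A2L (a factor of supercomplex assembly), carry a matching symbol but are not subunits of the enzymes, and they stayed in the count of 77.

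Oxidative phosphorylation takes place at the inner mitochondrial membrane. Complexes I and II pass electrons from NADH and succinate to ubiquinone, complex III passes them on to cytochrome c, and complex IV reduces oxygen. Complexes I, III and IV pump protons, and complex V, the ATP synthase, uses the gradient to make ATP. Complex II is also the succinate dehydrogenase of the tricarboxylic acid cycle and is encoded wholly in the nucleus, whereas the other complexes also contain subunits encoded by mitochondrial DNA. Transcription of the nuclear subunits is known to involve NRF1, the ETS factor GABP, YY1 and the estrogen-related receptor ESRRA, with coactivators of the PGC-1 family.

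Poly(A) RNA was sequenced from SKBR-3 and BT474m1, established human breast cancer lines with HER2 amplification. Hormone receptors for estrogen and progesterone are absent from SKBR-3 and present in BT474m1, which derives from BT474. Each line received DMSO (the vehicle of the drugs), lapatinib at 300 nM (which inhibits the kinases HER2 and EGFR), JQ1 at 300 nM (which displaces BET bromodomain proteins from chromatin) or both drugs at these doses, for 48 h by the labels. Each of the 8 groups was 1 library, so that the spread among replicates is unknown and no p-value is given. Values are normalised read counts, in units that put the upper quartile of the genes above 0 at 1000, as the authors scaled them. Where 4 values of a gene follow each other, they are in the order DMSO, lapatinib, JQ1, both drugs. A log2 change is the difference of log2(value + 1), and its 95% interval covers counting error only. Depth ran from 21420053 to 34112269 reads on genes. ERBB2, KRT8, KRT18, KRT19 and EPCAM, markers of these lines, were high in all 8 libraries, with a lowest value of 3299.7. ESR1 and PGR reached at most 16.8 and 3.06 units in SKBR-3 and were at least 189.9 in BT474m1. Of 8 markers of leukocytes, fibroblasts, endothelium and basal epithelium, COL1A1 alone passed 14.1 units in any library. The 8 summed to 129.6, 43.6, 97.2 and 28.9 units in SKBR-3 and to 1256, 1211, 399 and 341 in BT474m1, lowest with both drugs in each line, and their part in the results was not tested. Between 3 and 7 of the 8 were at 0 in each library.

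The promoters of 4 members with motif matches are shown, as 2 genes of complex I and 2 of complex II whose values differed in SKBR-3. The choice followed a look at the values, and these genes are not the extremes: ATP5G1 and NDUFS8, the lowest members with both drugs, and NDUFV3, the highest, held none of the letters searched. NDUFS7 (Entrez 374291) and NDUFS6 carry subunits of complex I and were among the lowest with both drugs, SDHB (Entrez 6390) is the iron-sulfur subunit of complex II, and SDHA (Entrez 6389), the flavoprotein subunit of complex II, was higher with both drugs than with DMSO. The sequences are those of RefSeq on GRCh38.p14, from 250 bases before the annotated start to 30 bases after it. They lie at chr19:1383657-1383936 (plus strand), chr5:1801157-1801436 (plus strand), chr1:17054003-17054282 (minus strand) and chr5:218070-218349 (plus strand), in the order printed. Capitals mark matches, on either strand, to letters searched for NRF1 (GCGCATGCG, or the looser GCGCNTGCG), ETS factors (CCGGAAG), YY1 (AAGATGGC) and ESRRA (AAGGTCA).
NDUFS7: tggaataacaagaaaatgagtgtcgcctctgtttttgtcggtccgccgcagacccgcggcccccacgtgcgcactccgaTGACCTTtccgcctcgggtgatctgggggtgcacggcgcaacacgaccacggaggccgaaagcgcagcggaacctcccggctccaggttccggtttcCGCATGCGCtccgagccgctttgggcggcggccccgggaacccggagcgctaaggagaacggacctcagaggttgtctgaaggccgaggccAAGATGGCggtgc
NDUFS6: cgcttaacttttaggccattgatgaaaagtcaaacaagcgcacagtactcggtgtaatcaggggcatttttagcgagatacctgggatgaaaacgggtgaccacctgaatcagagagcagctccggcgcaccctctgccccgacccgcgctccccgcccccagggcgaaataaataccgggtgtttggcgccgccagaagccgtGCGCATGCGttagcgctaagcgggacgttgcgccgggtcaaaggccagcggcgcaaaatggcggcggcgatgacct
SDHB: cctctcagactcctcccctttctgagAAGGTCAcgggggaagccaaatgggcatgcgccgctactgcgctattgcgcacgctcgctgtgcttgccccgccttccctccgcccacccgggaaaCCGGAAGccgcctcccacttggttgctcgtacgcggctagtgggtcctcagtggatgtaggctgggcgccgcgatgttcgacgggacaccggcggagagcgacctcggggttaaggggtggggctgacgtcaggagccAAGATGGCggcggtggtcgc
SDHA: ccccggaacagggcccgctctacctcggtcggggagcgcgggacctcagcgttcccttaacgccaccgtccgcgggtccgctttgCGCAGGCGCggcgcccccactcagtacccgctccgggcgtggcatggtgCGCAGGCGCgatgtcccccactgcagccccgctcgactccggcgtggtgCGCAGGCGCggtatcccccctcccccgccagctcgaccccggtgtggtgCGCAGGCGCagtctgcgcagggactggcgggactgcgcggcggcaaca
The NDUFS7 window held an NRF1 match at position -74, an ESRRA match at -171 and a YY1 match at 18, where positions give the first base of a match, the base before the start is -1 and the start itself is 1. NDUFS6 held 1 NRF1 match, at -46, and its ESRRA match runs past the end of the stretch printed. SDHB held an ETS match at -128, an ESRRA match at -224 and a YY1 match at 11. SDHA held only matches to the looser NRF1 letters, 4 in all, at -165, -116, -67 and -18.

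A promoter was found for 63 of the 77 members, and windows of 250 bases before to 50 after the start were searched. The strict NRF1 letters occurred in 17.5% of these 63 promoters, against 2.34% of all 27305 promoters and 4.03% of the 11389 promoters of genes that met the minimum value. The looser letters, which include the strict ones, occurred in 34.9% of the members' promoters, against 9.01% of all and 16.2% of those that met the minimum. For the ETS letters the share was 33.3% of the members, 12.2% of all and 21.3% of those that met the minimum. YY1 letters were found in 17.5%, 3.52% and 6.06% of the same groups, and ESRRA letters in 15.9%, 4.80% and 3.99%. At least 1 match was present for 43 of the 63 members (68.3%), against 25.4% of all promoters and 39.6% of those that met the minimum. With both drugs in SKBR-3, the median log2 change was -0.85 with the strict NRF1 letters and -0.86 without, -0.89 with the looser NRF1 letters and -0.80 without, and -1.03 with the ETS letters and -0.75 without. It was -1.03 with and -0.75 without the YY1 letters, and -0.94 with and -0.80 without the ESRRA letters. In BT474m1 the medians with and without were -0.12 and -0.24 for strict NRF1, -0.25 and -0.15 for looser NRF1, -0.28 and -0.22 for ETS, -0.59 and -0.17 for YY1, and -0.29 and -0.20 for ESRRA. A match describes the letters in the window only, and binding was not measured here.

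The share of each library's reads that fell on the members was lowest with both drugs in SKBR-3. The DMSO library had 1.30%, lapatinib 1.07%, JQ1 0.949% and both drugs 0.688%, so that the last share was 53.0% of that with DMSO. In BT474m1 DMSO had 1.06%, lapatinib 0.841%, JQ1 1.08% and both drugs 0.882%, and the last was 83.2% of that with DMSO. The exact 95% binomial interval was 1.29% to 1.30% for DMSO and 0.685% to 0.691% for both drugs in SKBR-3, which covers counting error only. With JQ1 alone the share was 73.1% of that with DMSO in SKBR-3 and 101.4% in BT474m1.

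The complexes differed in SKBR-3. With both drugs the share on complex V was 46.3% of that with DMSO, on complex III 47.7%, on complex I 53.2%, on complex IV 55.4% and on complex II 84.0%. With lapatinib alone complex II took 112.9% of its share with DMSO, while the other complexes took between 73.4% and 86.6%. In BT474m1 with both drugs, complex V was again lowest by reads, at 74.6% of its share with DMSO, and complex IV was highest, at 93.7%. By median log2 change of its genes, complex III was lowest there, at -0.50, against -0.34 for complex V. Of the 56534 units of complex V in BT474m1 with DMSO, ATP5B had 17259 and ATP5A1 15220. No member was among the 20 highest genes of any library. In SKBR-3 the 20 highest genes included keratins that differed between treatments: KRT8 had 59145 units with DMSO and 211202 with JQ1. Without the 20 highest genes, the members' share was 1.42% with DMSO and 0.773% with both drugs in SKBR-3. In bulk RNA, fewer cells that express a gene and less RNA per cell cannot be told apart.

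**Figure D1:**
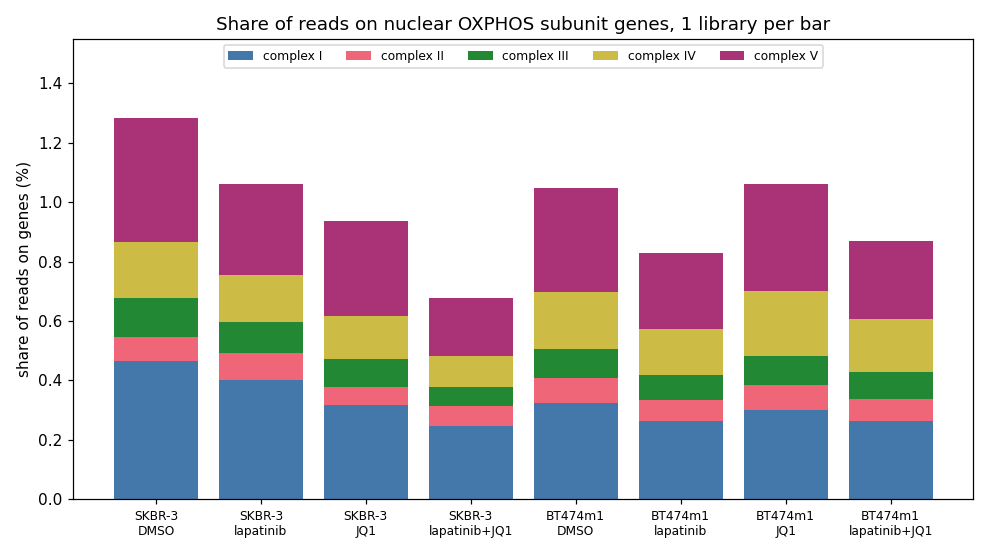
Share of reads on genes (%, vertical axis) taken by the nuclear subunit genes of complexes I to V (stacked colours) in each of the 8 libraries. The SKBR-3 bar with both drugs is the shortest, and the JQ1 bar is shorter than the DMSO bar in SKBR-3 and about equal to it in BT474m1.

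Gene by gene, the members were lower with both drugs in SKBR-3 than all genes were. Their median log2 change was -0.88, against -0.08 for the 14429 genes and 0.04 for the 5930 genes that reached 1000 units in any library. Of the 77 members, 33 had values at least 2-fold below DMSO in that library, against 20.8% of all genes, and 51 were at least 1.5-fold lower, against 31.9%. None was 2-fold higher, against 10.8% of all genes, and 70 had an interval wholly below 0 (90.9%, against 40.9% of all genes). Intervals are narrower for genes with more reads, and 76 of the 77 members had 100 units or more in every library. The share of intervals below 0 thus depends on read number as well as on the change. By complex, the share at least 2-fold lower was 41.7% in complex I, 55.6% in complex III, 27.3% in complex IV and 60.0% in complex V, with 1 of 4 genes in complex II. These shares by complex were counted only as the authors scaled the values, and other scalings would move them. With median-of-ratios scaling 19 members were at least 2-fold lower, 24.7% against 18.2% of all genes, with a median of -0.73 when that of all genes was 0.00. With equal totals 35 were, 45.5% against 22.7% of all genes, with a median of -0.97 and -0.16 for all genes. The distance of the members' count from the background thus depended on the scaling. The members lay below the median of all genes by -0.80, -0.73 and -0.80 under the 3 scalings.

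Each drug alone gave smaller differences in SKBR-3. With lapatinib the members' median was -0.23 against 0.05 for all genes; 2 members, ATP5G1 and ATP5L2, were at least 2-fold lower, against 9.44% of all genes. With JQ1 the median was -0.31 against -0.08, and only NDUFC1 was at least 2-fold lower, against 11.8% of all genes. ATP5L2 had few reads, with 13.6 units with DMSO and 4.59 with lapatinib, and is the member nearest to the minimum, at 2.33 to 17.4 units over the libraries. At 1.5-fold, 9 members were lower with lapatinib (18.8% of all genes) and 13 with JQ1 (21.5% of all genes), which for the members is 11.7% and 16.9%. With median-of-ratios scaling these counts were 11 and 5 (19.2% of all genes for each), and with equal totals 14 and 21 (20.4% and 26.8%). As the authors scaled them, counts with single drugs were below the share of all genes, although the medians were below that of all genes. Of the 5930 genes that reached 1000 units in any library, 14.9% were at least 1.5-fold lower with lapatinib and 10.7% with JQ1. Against these, the members' share at 1.5-fold was lower with lapatinib and higher with JQ1. At 2-fold the shares of these genes were 6.68% and 4.30%, above those of the members.

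In BT474m1 the picture differed for JQ1. With lapatinib the members' median was -0.31 against 0.07 for all genes, and 1 member, NDUFS5, was at least 2-fold lower, against 8.06%, while 14 were at least 1.5-fold lower, against 15.6%. With JQ1 the median was 0.04 against -0.06, no member was 2-fold lower, against 11.8%, 2 were at least 1.5-fold lower, against 21.1%, and 43 of 77 were above DMSO (55.8%, against 44.7%). With both drugs the median was -0.24 against 0.00, and 5 members were at least 2-fold lower, against 15.3% of all genes, with 20 at least 1.5-fold lower, against 24.6%. The 4 at least 1.5-fold higher, against 24.8%, were UQCRB, NDUFB3, NDUFA2 and COX7A2L. With both drugs in BT474m1 the members' share was thus below the background at 2-fold (6.49%) and near it at 1.5-fold lower (25.97%).

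**Figure D2:**
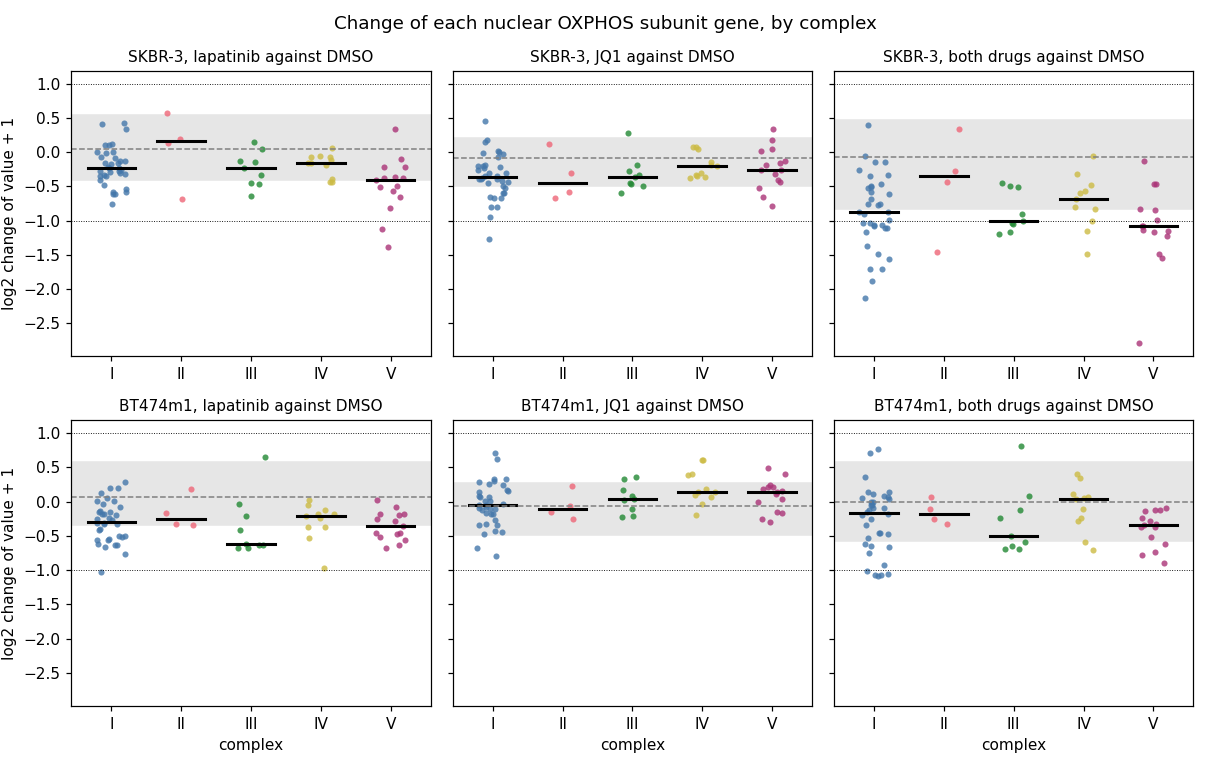
Log2 change of value + 1 against DMSO (vertical axis) for each member, by complex (horizontal axis), with SKBR-3 above and BT474m1 below. Black bars are medians of each complex, the dashed line and grey band are the median and the middle quartiles of all genes, and dotted lines mark 2-fold. In SKBR-3 with both drugs the medians are -0.88, -0.35, -1.002, -0.68 and -1.08 for complexes I to V.

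Complex I, the NADH dehydrogenase, had 15 of its 36 genes at least 2-fold lower with both drugs in SKBR-3. This was 41.7%, against 20.8% of all genes, as the authors scaled them. Some of the 15 lay just past the limit, such as NDUFA1 and NDUFB8 at -1.03 each. NDUFS8 and NDUFS7, iron-sulfur subunits of its catalytic arm, were among the 15. NDUFS8 (Entrez 4728, chr11:68030681-68036644) had 1032, 678, 895 and 235 units in SKBR-3. In BT474m1 it had 2489.9, 1620.5, 1833 and 1190.1 units. The library with both drugs was the lowest in each line. The log2 change with both drugs was -2.13 (interval -2.31 to -1.97) in SKBR-3 and -1.06 (-1.14 to -0.99) in BT474m1. In SKBR-3 NDUFS8 was at 65.6% of DMSO with lapatinib, at 86.7% with JQ1 and at 22.7% when these were combined. NDUFS7 had 1058, 799, 667 and 288 units in SKBR-3 and 602, 408, 502 and 359 in BT474m1, with changes of -1.88 and -0.74 with both drugs. Its promoter is the first of those printed.

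NDUFS1, the largest subunit, which carries iron-sulfur clusters, was lower by nearly the same amount with both drugs in the 2 lines. It had 3452, 3109, 1979 and 1654 units in SKBR-3 and 2542, 1638, 2017 and 1216 in BT474m1, with changes of -1.06 in each. The order of the single drugs differed: JQ1 gave the lower value in SKBR-3 and lapatinib the lower value in BT474m1. NDUFV1, which binds the flavin and NADH, had 4025, 3258, 2989.7 and 1874 units in SKBR-3, a change of -1.10 with both drugs. In BT474m1 it had 3257, 3169, 3154 and 3166 units, and its interval with both drugs (-0.09 to 0.01) held 0. Its partner NDUFV2 had 935 units with DMSO and 778 with both drugs in SKBR-3, and 2338 and 2155 in BT474m1. NDUFS3, a core subunit of the same arm, had a change of -1.08 with both drugs in SKBR-3 and -0.46 in BT474m1.

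In complex I, 5 genes were at least 2-fold below DMSO in each line when the drugs were combined: NDUFB10, NDUFS5, NDUFS8, NDUFS1 and NDUFC1. They were the only such members, 6.49% of the 77, against 8.93% of all genes. NDUFC1 had 1029, 711, 425 and 316 units in SKBR-3 and 749, 529.5, 467 and 372 in BT474m1. With JQ1 alone it changed by -1.27 (-1.41 to -1.14) in SKBR-3, the lowest of the members there, and by -0.68 in BT474m1. NDUFB10 had 2469.6, 1932, 1905 and 876 units in SKBR-3 and 1809, 1261, 1043 and 848 in BT474m1. NDUFS5 had 1715, 1152, 1282 and 664 units in SKBR-3 and 1719, 839.8, 1804 and 822 in BT474m1. In BT474m1 the whole difference of NDUFS5 was present with lapatinib alone, at -1.03, and JQ1 alone gave 0.07.

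The other complex I genes at least 2-fold lower in SKBR-3 with both drugs were NDUFS6, NDUFA9, NDUFA6, NDUFA13, NDUFA1, NDUFB7, NDUFB8 and NDUFS3. NDUFS6 had 1905, 1127, 1396 and 583 units in SKBR-3, a change of -1.71, and 3122, 2117, 2488 and 2030.3 in BT474m1, a change of -0.62. Some subunits differed little or were higher. NDUFV3, an accessory subunit of the flavin module, had 617 units with DMSO in SKBR-3 and 829, 849 and 816 in the drug libraries, 0.40 above DMSO with both drugs. NDUFA2 had 669, 591, 1098 and 1091 units in BT474m1 and was above DMSO in both libraries with JQ1. NDUFB3 was above DMSO in the same libraries, with 667, 692, 1024 and 1134 units. In SKBR-3 both genes were lower with both drugs, at -0.47 and -0.51.

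The 4 genes of complex II differed in direction in SKBR-3, as did genes within other complexes with single drugs. SDHA, the flavoprotein, had 4612, 6892, 5018 and 5860.1 units, with DMSO the lowest. SDHB, the iron-sulfur subunit that binds to it, had 2222, 1387, 1396 and 809 units. With both drugs the log2 change was 0.35 (0.30 to 0.39) for SDHA and -1.46 (-1.56 to -1.36) for SDHB. The membrane anchors lay between them: SDHC had 3403, 3882, 2749 and 2822 units, and SDHD 2341, 2574, 1566 and 1737. In BT474m1 the spread was narrower. SDHA had 8015, 6339.6, 7699 and 6710.2 units there, and SDHB 1096, 872, 984 and 876, with changes of -0.26 and -0.32 with both drugs. SDHC changed by -0.11 and SDHD by 0.07.

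Complex III, the cytochrome bc1 complex, had 5 of 9 genes at least 2-fold lower with both drugs in SKBR-3. This was 55.6%, against 20.8% of all genes, as the authors scaled them. UQCR10 at -1.002, UQCRFS1 at -1.04 and UQCRH at -1.04 lay just past the limit. UQCRC2, a core protein, had 4865, 3845, 3535 and 2115 units in SKBR-3, a change of -1.20, and 2892.5, 2492, 3050.2 and 2458 in BT474m1, a change of -0.23. UQCRC1, the other core protein, had 4281, 3664, 3772 and 2298 units in SKBR-3 and 2951, 1905, 2987 and 1961 in BT474m1. UQCRFS1, the Rieske iron-sulfur protein, had 3165, 2312, 2452 and 1541 units in SKBR-3 and 1836, 1382, 1581 and 1139 in BT474m1. The remaining genes at least 2-fold lower were UQCR10, UQCRH and UQCRHL. UQCRHL is a near copy of UQCRH, and its value was between 0.623 and 0.710 of that of UQCRH in every library, so that the reads of the pair may be shared and both are uncertain. Complex III was the complex with the lowest median with lapatinib in BT474m1, at -0.61, a median that counts UQCRH and UQCRHL separately. By reads it kept the highest share of its DMSO value there, 85.6%, against 72.8% to 84.8% for the other complexes. UQCRB, the ubiquinone-binding subunit, was higher there than with DMSO, with 2259.8, 3553, 2555 and 3959 units. In SKBR-3 UQCRB had 513, 568, 374 and 363 units.

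Complex IV, cytochrome c oxidase, had 3 of 11 genes at least 2-fold lower with both drugs in SKBR-3: COX7B, COX6B1 and COX8A. This was 27.3%, near the 20.8% of all genes. COX7B had 4528, 3348, 3535 and 1618 units in SKBR-3, a change of -1.48, and 1760.5, 1356, 1942 and 1489 in BT474m1, a change of -0.24. COX4I1, the regulatory subunit found in most tissues, had 4062, 3758, 3283 and 2331 units in SKBR-3 and 5119, 4529, 5392 and 4210.5 in BT474m1. COX5A and COX5B changed by -0.56 and -0.59 with both drugs in SKBR-3 and by 0.05 and 0.03 in BT474m1. Within complex IV, COX6A1 differed least in SKBR-3, with 1719, 1544, 1809.9 and 1652 units. In BT474m1 COX6A1 had 2694, 2075, 4120.3 and 3418 units, and COX7A2 had 1963, 1656, 2992 and 2591. Both were more than 1.5-fold above DMSO with JQ1 there, as were NDUFA2 and NDUFB3, the 4 members past that fold against 11.9% of all genes.

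The isoforms known mainly from particular tissues or from hypoxia were near 0 in both lines. Below the minimum value were COX4I2, COX6A2, COX6B2, COX7A1, COX7B2, COX8C and NDUFA4L2, with highest values between 0 and 6.89 units. The isoforms found in most tissues, COX6A1, COX6B1, COX7A2, COX8A and NDUFA4, were therefore the measured ones. COX7A2L had 1573, 1596, 1335 and 1656 units in SKBR-3 and 973, 1348, 1226 and 1476 in BT474m1.

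Complex V had the lowest median with both drugs in SKBR-3, with 9 of 15 genes at least 2-fold lower. This was 60.0%, against 20.8% of all genes, as the authors scaled them. ATP5I at -1.13, ATP5J at -1.08 and ATP5L at -1.07 were near the limit. ATP5B, the catalytic beta subunit which had the most units of any member in all 4 SKBR-3 libraries and in BT474m1 with DMSO or JQ1, had 28235.5, 21218, 22654 and 12706 units in SKBR-3 and 17259, 11128, 17157 and 11279 in BT474m1. Its change with both drugs was -1.15 and -0.61. ATP5A1, the alpha subunit, had 5118, 3929.6, 4577 and 2886 units in SKBR-3 and 15220.2, 11128, 17040.1 and 11791 in BT474m1. ATP5C1, the gamma subunit of the stalk, had 4989, 3897, 4554 and 2775 units in SKBR-3 and 3521, 2764, 3605 and 2786 in BT474m1. ATP5D, the delta subunit of the stalk, changed by -1.55 with both drugs in SKBR-3 and by -0.38 in BT474m1. The other genes at least 2-fold lower in SKBR-3 were ATP5G1, ATP5G3, ATP5I, ATP5J, ATP5J2, ATP5L and ATP5L2. In BT474m1 none of the 15 was 2-fold lower, against 15.3% of all genes, and all 15 were below DMSO, against 49.1%.

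The c subunit, which forms the rotor ring, is encoded by 3 genes that give the same mature protein, and they diverged in SKBR-3. ATP5G1 (now ATP5MC1, Entrez 516, chr17:48892787-48895871) had 740.2, 340.0, 429 and 106 units there. Its change with both drugs, -2.79 (-3.06 to -2.56), was the lowest of the 77 members. ATP5G3 had 4228, 2683, 3544 and 1514 units, a change of -1.48, and ATP5G2 had 1141, 1438, 722 and 1047, a change of -0.12. In units per kilobase of transcript, ATP5G1 made up 24.99% of the 3 genes with DMSO and 6.82% with both drugs, and ATP5G2 39.4% and 68.9%. In BT474m1 ATP5G1 had 2347, 1702, 1974 and 1406 units, and its share went from 41.5% to 34.4%. These shares rest on annotated transcripts of 646, 632 and 2587 bases for ATP5G1, ATP5G2 and ATP5G3, and other transcript ends would move them.

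**Figure D3:**
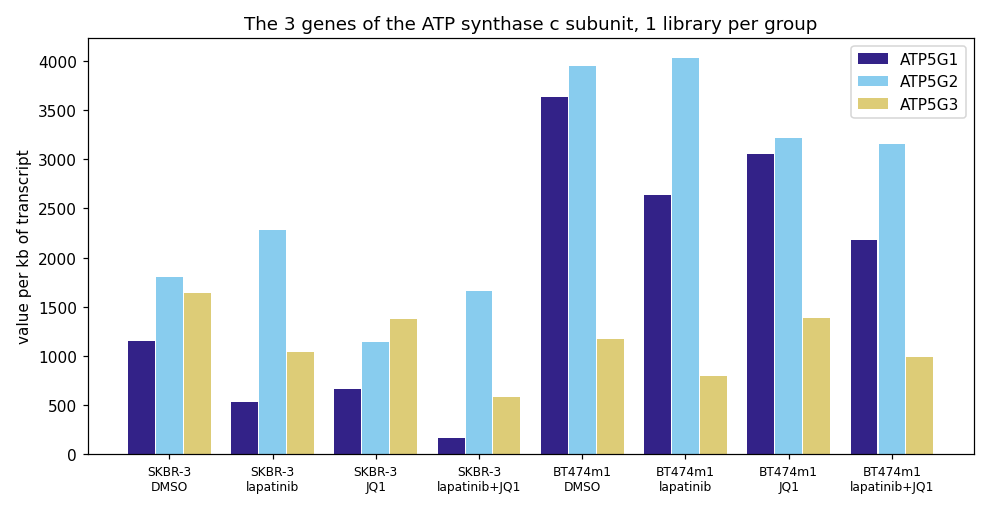
Units per kilobase of annotated transcript (vertical axis) for the 3 genes of the ATP synthase c subunit in each of the 8 libraries, 1 library per group. ATP5G1 is the shortest bar in SKBR-3 with both drugs, where ATP5G2 is 68.9% of the sum of the 3 genes.

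With JQ1 added to lapatinib, the members were lower than with lapatinib alone in SKBR-3 and near it in BT474m1. Against lapatinib alone, the median with both drugs was -0.61 in SKBR-3 (all genes -0.11), and 8 members were at least 2-fold lower, against 16.2% of all genes. At 1.5-fold 40 were lower, against 27% of all genes, but 23 with median-of-ratios scaling, against 22.6%. Those past 2-fold were ATP5G1, NDUFS8, NDUFS7, NDUFC1, NDUFB10, ATP5D, COX7B and NDUFA1. In BT474m1 the same contrast had a median of 0.06 (all genes -0.02), and no member was 2-fold lower, against 12.5% of all genes, and 1 was at least 1.5-fold lower, against 20.9%. Against JQ1 alone, the median with both drugs was -0.51 in SKBR-3 (all genes 0.00), with 11 members at least 2-fold lower, against 12.3% of all genes, and 36 at least 1.5-fold lower, against 23%. In BT474m1 it was -0.29 (all genes 0.06), with NDUFS5 and ATP5L2 at least 2-fold lower, against 7.27% of all genes, and 12 members at least 1.5-fold lower, against 14.5%.

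The log2 changes of the single drugs were summed for each member and compared with that of both drugs. In SKBR-3 the change with both drugs was below the sum for 71 of 77 members, with a median difference of -0.30, against -0.06 for all genes, of which 56.02% were below their sum. With equal totals the median differences were -0.19 for the members and 0.03 for all genes. The differences were -1.32 for NDUFS8, -0.89 for ATP5G1, -0.81 for NDUFS7 and -0.69 for COX7B. For SDHB and NDUFS1 they were -0.11 each, so that these were near the sum. In BT474m1 34 of 77 were below the sum (44.2%, against 48.7% of all genes), with a median difference of 0.03, against 0.01. The value uses 4 libraries, each once, and has no replicate.

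Between the lines, 73 of 77 members had a lower change with both drugs in SKBR-3 than in BT474m1, against 57.1% of all genes. For JQ1 alone it was 70 of 77 (all genes 52.2%), and for lapatinib alone 33 of 77 (all genes 50.8%). For both drugs against lapatinib it was 76 of 77 (all genes 58.0%). The order of the members was partly shared: over the 77 members, the changes with both drugs had a Pearson correlation of 0.657 and a Spearman correlation of 0.713 between the lines, and over all genes these were 0.550 and 0.508. The members share libraries within a line, so that they are not independent. With 1 library for each line and treatment, line and library cannot be told apart.

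**Figure D4:**
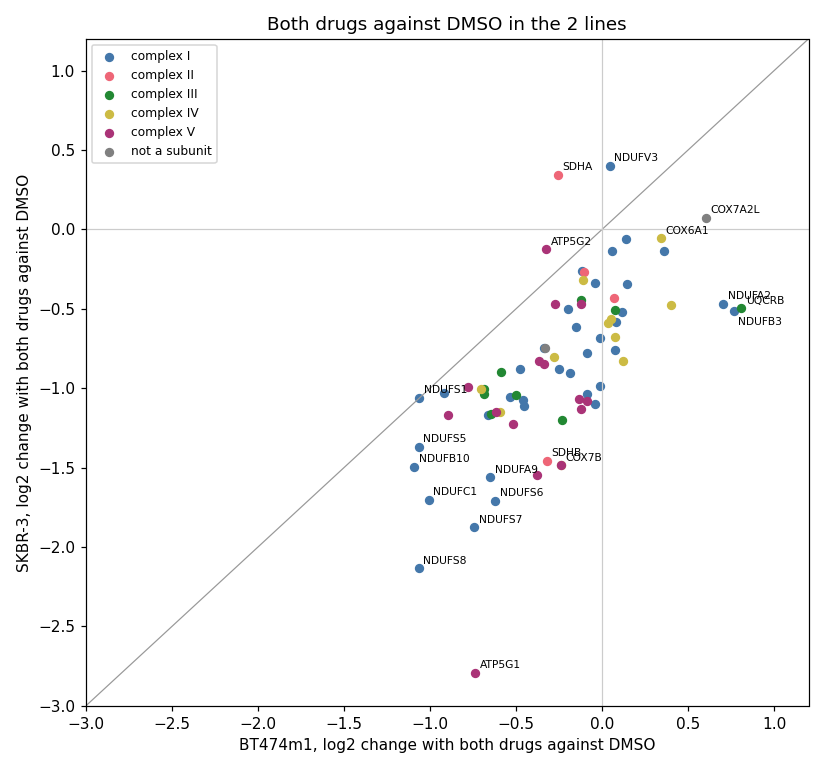
Log2 change with both drugs against DMSO in BT474m1 (horizontal axis) and SKBR-3 (vertical axis) for the 77 members, coloured by complex, with the line of equal change. Most points, 73 of 77, lie below the line, and ATP5G1 and NDUFS8 are lowest in SKBR-3.

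**Figure D5:**
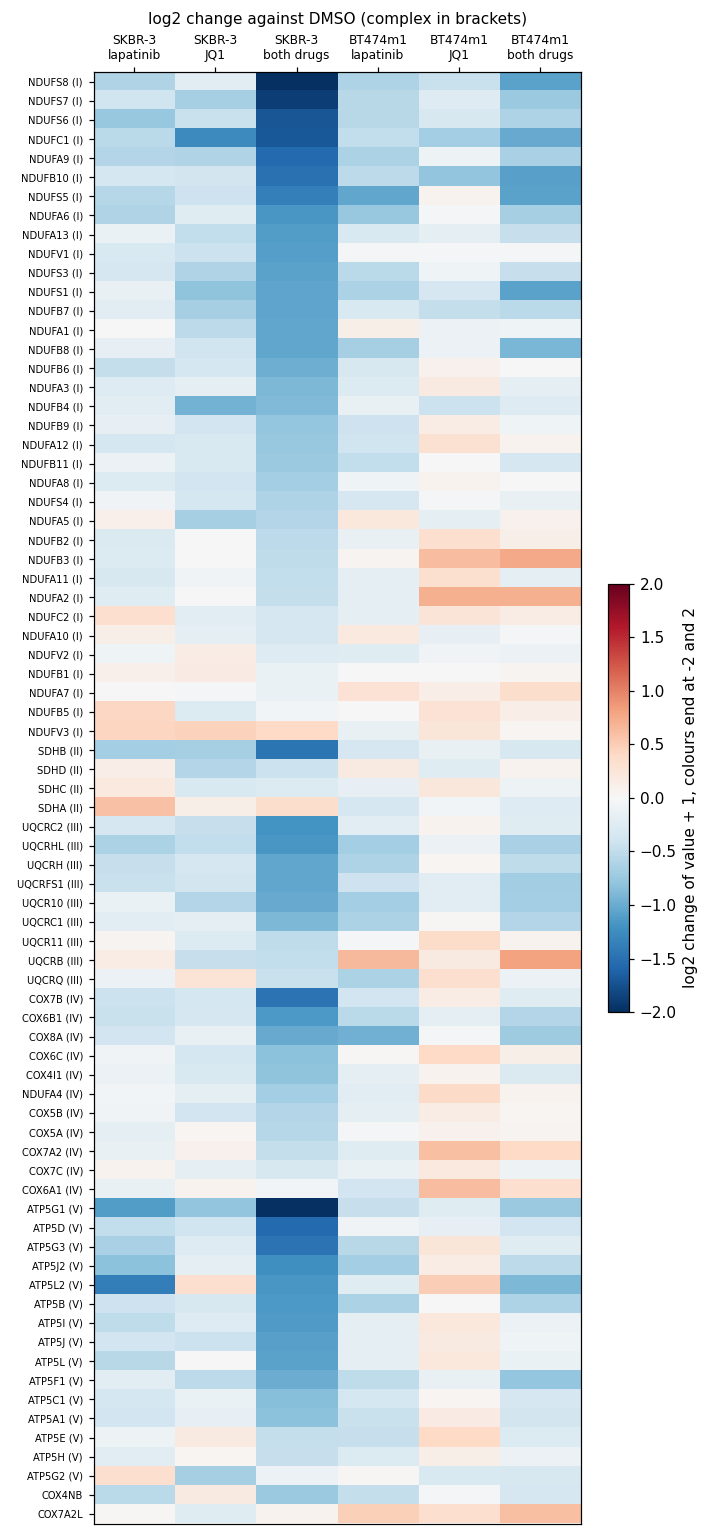
Log2 change against DMSO (colour, which ends at -2 and 2) of 76 of the 77 members (rows, ordered within a complex by the change with both drugs in SKBR-3) in the 6 drug libraries (columns). The SKBR-3 column with both drugs is the darkest blue, and SDHA, NDUFV3 and UQCRB are red in columns where most members are blue.

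With DMSO the lines themselves differed in these genes. The median log2 difference of the members, BT474m1 minus SKBR-3, was -0.29, and that of all genes was 0.21. Of the 77, 14 were at least 2-fold lower in BT474m1, against 15.6% of all genes, 24 at least 1.5-fold lower, against 24.2%, and 6 at least 2-fold higher, against 26.8%. NDUFB9 had 20131 units in SKBR-3 and 3188 in BT474m1, a difference of -2.66, and NDUFB6 had 829.6 and 201, a difference of -2.04. NDUFA5, COX7B and ATP5D followed, at -1.38, -1.36 and -1.31. Higher in BT474m1 were UQCRB at 2.14, ATP5G1 at 1.66, ATP5A1 at 1.57, NDUFV2 at 1.32, NDUFS8 at 1.27 and ATP5G2 at 1.13. By chromosome, the 7 members on chromosome 1 ranged from -1.28 to 0.04, with a median of -1.02 that counts UQCRH and UQCRHL separately. Both on chromosome 18, ATP5A1 and NDUFV2, were higher in BT474m1. On chromosome 8 the 3 members ranged from -2.66 to 2.14. Copy number was not measured here.

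Other genes of the pathway, taken from lists that the symbol rule did not reach, were read beside the members. The 7 further genes were the subunits NDUFAB1, ATP5O, USMG5, C14orf2 and CYC1, the carrier CYCS and ATPIF1, the inhibitory factor of the ATP synthase. In SKBR-3 all 7 were at least 2-fold below DMSO when the drugs were combined, against 20.8% of all genes, with a median of -1.32. CYCS, which encodes cytochrome c, had 11606 units with DMSO and 3905 with both drugs. In BT474m1 CYC1, the cytochrome c1 of complex III, was the only one of the 7 that was 2-fold lower, at -1.14 (14.3%, against 15.3% of all genes), and their median was -0.16. The 37 assembly factors had a median of -0.53 in SKBR-3, with 10 at least 2-fold lower (27.03%, against 20.8% of all genes) and COX19 at least 2-fold higher (2.70%, against 10.8%). The lowest were C20orf7 (NDUFAF5, a complex I factor) at -2.60, FOXRED1 at -1.72 and BCS1L, the complex III chaperone, at -1.55. In BT474m1 their median was -0.10 and none was 2-fold lower, against 15.3% of all genes.

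Lists of neighbouring pathways were read in the same way. With both drugs in SKBR-3 the median was -0.78 for 76 genes of the mitochondrial ribosome, -0.64 for 13 of the tricarboxylic acid cycle, -0.78 for 17 of glycolysis and -0.19 for 80 of the cytosolic ribosome. In BT474m1 the medians were -0.32, -0.45, -0.46 and 0.13 in the same order. With single drugs in SKBR-3, glycolysis had a median of -0.65 with lapatinib, where the members had -0.23, and 0.09 with JQ1, where the members had -0.31.

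Of 16 regulators listed, TFAM, TFB1M, TFB2M and POLRMT serve mitochondrial DNA or its transcripts, and the others act on nuclear genes. PPARGC1B and PPRC1, coactivators of the PGC-1 family, were the 2 at least 2-fold lower with both drugs in SKBR-3. They were 12.5% of the 16, against 20.8% of all genes. In BT474m1 5 of the 16 were at least 2-fold lower, 31.2% against 15.3%: PPRC1, HCFC1, GABPB1, GABPB2 and ESRRG. PPARGC1B had 286, 176, 202 and 63.97 units in SKBR-3 and 83.5, 81.3, 59.4 and 53.1 in BT474m1. PPRC1 had 719, 379, 609 and 286 units in SKBR-3 and 1003, 939, 517 and 415 in BT474m1, with changes of -1.33 and -1.27 with both drugs. PPARGC1A had 1 read in SKBR-3 with DMSO and 0 in the 3 drug libraries, and between 138.6 and 233.7 units in BT474m1. GABPB1, which pairs with the ETS factor GABPA, had 523, 306, 425 and 308 units in SKBR-3 and 616, 268, 579.6 and 302 in BT474m1, lower in each library with lapatinib. HCFC1, a cofactor of these factors, changed by -0.65 with both drugs in SKBR-3 and by -1.27 in BT474m1. NRF1 changed by -0.12 and 0.12, GABPA by -0.25 and -0.14, YY1 by 0.25 and -0.14, and ESRRA by 0.00 and 0.47. TFAM, the mitochondrial DNA packaging factor, changed by -0.40 and -0.32, TFB1M by -0.96 and -0.18, TFB2M by -0.28 and -0.37, and POLRMT, the mitochondrial RNA polymerase, by -0.83 and 0.19. GABPB2 reached at most 92.9 units, ESRRB reached at most 14.5 units, and ESRRG at most 2.15 in SKBR-3 and 57.5, 257, 7.73 and 23.3 in BT474m1. Whether the level of any regulator bears on the members was not tested.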

How the data were processed

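Groups were taken from the labels, 1 library each, and the members and gene lists were chosen with earlier results of these data known. The deposited unit is a signal for each gene, made of RSEM read counts that the authors scaled to an upper quartile of 1000 among genes above 0. The submitters' processing notes name hg19, Picard 1.88, SAMtools 1.2, RSEM, R 3.2.2, DESeq and DESeq2 1.12.3, without saying what each was used for. The study's methods name another build and other tools. The sources differ on the treatment time: the labels, and the study for RNA-seq in SKBR-3, give 48 h, which is used here, while its general methods give a shorter time. The labels give 2 names for the library kit.

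The value of 1 read, 0.471 to 0.766 units, was recovered as the step between values. Between 78.3% and 82.8% of values above 0 were whole reads within 0.02, too few for a count test. Genes with 10 or more units in any library were kept (6102 removed). Changes are differences of log2(value + 1), which understate those of low genes, with exact Clopper-Pearson intervals on recovered reads. Called means past 2-fold (or 1.5-fold), and no test was run, since each line and treatment had 1 library. Without molecular identifiers, PCR copies count as separate reads. Named genes were core subunits, isoform sets, members past 2-fold, those changed most in both lines and the regulators, except 1 gene whose own values are not reported here. Positions and promoters are of GRCh38.p14 (RefSeq) and locate genes, not reads. Python 3.11.15, pandas 2.3.3, numpy 2.4.6, matplotlib 3.10.9 and scipy 1.17.1 were used, and the method was tested on simulated data. Alternatives were a pseudocount of 10, 2 other scalings, no filter or a filter at 100, members without isoforms, paralogs and non-subunits, means, a fold of 1.5 and shares without the 20 highest genes.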

Additional observations from a re-analysis of the deposited data

Results flagged for a closer look

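Members were listed here where the change in the 2 lines was at least 0.3 on the log2 scale, in opposite directions, with both counting intervals excluding 0. This limit was chosen after the values were seen. With 1 library per group the difference between the lines was not tested for any of them. With lapatinib, SDHA had a log2 change of 0.58 in SKBR-3 and -0.34 in BT474m1, a difference of 0.92. With JQ1, COX6C, a small subunit of complex IV, had -0.34 and 0.40, a difference of -0.74. With JQ1, NDUFA12 of complex I had -0.31 and 0.31, just past the limit in each line, a difference of -0.61. With both drugs, COX7A2 of complex IV had -0.48 and 0.40, a difference of -0.88. NDUFA2 of complex I had -0.47 and 0.71, a difference of -1.17. NDUFB3, also of complex I, had -0.51 and 0.76, a difference of -1.28. UQCRB of complex III had -0.50 and 0.81, a difference of -1.31.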

How the results depend on the processing

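Each group held 1 library, so that no replicate could be left out and no test was run. A fit of line plus treatment over the 8 libraries, in which differences between the lines in response would count as error, was not run. Of 785 recomputed values, 606 stayed within counting error (counts within 1.5 times) and 179 moved. No called value changed sign, but this was counted only for values past 2-fold in the main analysis. Values so far from 0 could hardly turn under these alternatives, so that this says little about stability. The medians of 3 complexes, all near 0, had the other sign as means: 0.09 and -0.09 for complex II with both drugs against JQ1 in SKBR-3, 0.03 and -0.08 for complex IV with both drugs in BT474m1, and 0.05 and -0.05 for complex V with both drugs against lapatinib there. Without a filter the complex IV value was 0. With median-of-ratios scaling the members' median in SKBR-3 was -0.22 with JQ1, -0.73 with both drugs and -0.45 when these were compared with lapatinib, and that of BT474m1 against SKBR-3 was -0.44. Members at least 2-fold lower then numbered 19 with both drugs in SKBR-3, 4 for both drugs against lapatinib there and 2 with lapatinib in BT474m1, against 18.2%, 14.01% and 8.60% of all genes. With equal totals the SKBR-3 median with JQ1 was -0.46 (all genes -0.22), with 2 members at least 2-fold lower, against 14.06% of all genes, and the median of both drugs minus the sum of the single drugs was -0.19 (all genes 0.03). In SKBR-3 with lapatinib 1 member was 2-fold lower with a pseudocount of 10, a filter at 100 or without isoforms, paralogs and non-subunits, against 6.85%, 8.43% and 9.44% of all genes. Without a filter 1 was for both drugs against lapatinib in BT474m1, against 11.3%. The mean difference of BT474m1 from SKBR-3 was -0.19. At 1.5-fold the lower members in SKBR-3 numbered 9 (lapatinib), 13 (JQ1), 51 (both drugs) and 40 (both drugs against lapatinib). With median-of-ratios scaling the JQ1 count was 5 and the last 23, and with equal totals those of lapatinib and JQ1 were 14 and 21. In BT474m1 they numbered 14, 2, 20 and 1, and 24 against SKBR-3 with DMSO. Without the 20 highest genes the members' share was 1.42%, 1.18%, 1.10% and 0.773% in SKBR-3 and 1.14%, 0.913%, 1.17% and 0.952% in BT474m1, in the order DMSO, lapatinib, JQ1 and both drugs. Counting only calls whose interval excluded no change, chosen after seeing the data, kept every count within 1.5 times. At these read numbers the interval of a 2-fold change nearly always excludes no change, so that this check could hardly fail. The spread between cultures is unknown, so that small differences between libraries cannot be judged.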
